A study of Mus musculus with 18 samples.

Results

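The genes of the cytosolic ribosomal proteins were followed in C2C12 cells, a mouse muscle line that grows as mononuclear myoblasts and can be differentiated into multinucleated myotubes. A gene was taken when it was annotated as protein-coding and its symbol began with Rpl or Rps and a digit, or was Rpsa, Rplp0, Rplp1 or Rplp2. The S6 kinase genes (Rps6k) and genes named as pseudogenes were left out. This gave 86 of the 47311 genes in the tables: 46 encode core proteins of the large ribosomal subunit, 31 encode core proteins of the small subunit, 8 are paralogs of core genes and 1, Rps19bp1, carries the prefix but encodes a binding partner of Rps19. The ribosomal protein genes Fau and Rack1 fall outside the symbol rule and are given beside the members.

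PolyA RNA came from 6 groups of 3 libraries each, labelled as biological replicates: myotubes with si-Setd2#1, myotubes with si-Setd2#2, myotubes with si-Ctrl, and myoblasts with the same 3 treatments. They are called siRNA 1, siRNA 2 and control here. Setd2 encodes the methyltransferase that trimethylates lysine 36 of histone H3 along transcribed genes. Per the labels' protocols, every group was stretched directly before RNA extraction, so the controls carry that treatment too. C2C12 is 1 cell line, and no separate animals stand behind the replicates: the p-values measure the spread between these libraries.

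The ribosome is built from a small subunit, which reads the mRNA, and a large subunit, which joins amino acids. Each subunit holds ribosomal RNA and ribosomal proteins in fixed proportions, so these proteins are made in matched amounts, and their mRNAs are among the most abundant in growing cells. Most of these mRNAs begin with a short run of cytosines and uracils, the terminal oligopyrimidine tract, through which the growth kinase mTORC1 and the protein LARP1 set their translation and stability. In muscle, ribosome number is known to track growth, and Rpl3l, a striated-muscle paralog of Rpl3, takes its place in a share of adult muscle ribosomes.

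The sequence around the transcription start is shown for some members that carry results below, and for Rpl7a as a case of a long run. The pyrimidine tract is known from most of these mRNAs, and the rule did not use it. Not every window holds a long run: the longest was 3 bases in Rpl11 and Rpl10 and 5 in Rpl3l. It was 5 in Rpsa and Rplp0 and 6 in Rps2, which are among the largest falls on differentiation and are not shown. Each line is 30 bases of the coding strand, 5′ to 3′, with 15 bases before and 15 after the start in RefSeq (GRCm38.p6), and the longest run of pyrimidines is in capitals. Rpl7a (chr2:26910792-26910821, plus strand) and Rpl14 (chr9:120571502-120571531, plus strand) hold long runs. Rpl12 (chr2:32961697-32961726, plus strand) fell most on differentiation. Rpl38 (chr11:114668565-114668594, plus strand) and Rps27 (chr3:90213634-90213663, minus strand) fell least among the core genes. Rpl11 (chr4:136053379-136053408, minus strand) and Rpl10 (chrX:74270801-74270830, plus strand) moved with the siRNAs in myoblasts, and Rpl3l (chr17:24727811-24727840, plus strand) is the muscle paralog.
Rpl7a: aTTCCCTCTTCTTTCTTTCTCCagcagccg
Rpl14: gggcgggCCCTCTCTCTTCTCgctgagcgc
Rpl12: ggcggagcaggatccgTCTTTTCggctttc
Rpl38: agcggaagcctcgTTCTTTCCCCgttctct
Rps27: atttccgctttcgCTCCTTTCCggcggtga
Rpl11: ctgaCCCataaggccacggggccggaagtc
Rpl10: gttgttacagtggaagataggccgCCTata
Rpl3l: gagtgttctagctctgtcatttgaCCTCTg

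RefSeq gave such a window for 57 of the core genes. A run of at least 6 pyrimidines was present in 35 of them (61.4%), and in 32.7% of all 27025 genes with a window. In the 300 bases from 250 before to 50 after the start, searched on both strands, CCGGAAG was present in 42.1% of these core genes and 9.9% of all genes. The palindromic CGCG element known as the binding motif of BANP was present in 10.5% of the core genes and 0.5% of all genes, CACGTG in 10.5% and 8.1%, and AAGATGGCG in 5.3% and 1.6%. TATAAA was present in 10.5% of the core genes and 15.7% of all genes. These are matches of letters, and annotated starts can lie several bases from the base at which most transcripts begin.

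The libraries held between 43544308 and 66615342 estimated reads. Levels are given as CPM, which are counts scaled to library size with the trimmed mean of M values (TMM) over the 18 libraries, or as TPM, which also corrects for transcript length. Setd2 stood at 34.45 to 58.84 CPM in the siRNA myotubes against 101.5 to 108 CPM in control myotubes, and at 34.43 to 45 CPM in the siRNA myoblasts against 97.67 to 118.2 CPM in control myoblasts. Myotube markers (8 genes from Myog to Ttn) summed to at least 18240 CPM in every myotube library and at most 426.4 CPM in every myoblast library, and markers of dividing myoblasts (5 genes, among them Mki67 and Top2a) to at most 356 CPM in myotubes and at least 2091 CPM in myoblasts. Fibroblast markers (5 genes, among them Pdgfra and Dcn) summed to at most 142.7 CPM in any library. The share of counts at ribosomal RNA genes ranged from 1.195% to 4.087%. Library names carry the prefixes C13 or D1 in myotubes and C14 or D2 in myoblasts, whose meaning the sources used here do not give, and libraries of 1 prefix resembled each other. The column of the third siRNA 2 myoblast library names SETD3 where its label says Setd2, and that of the third control myotube library names NT_2 where the others name NT_1, so leading counts are given without them as well. Of the 86 members, 56 share at least 50% of the 31-base words of their most abundant transcript with other genes, so the division of their reads between copies depends on the quantifier; the 272 genes named as pseudogenes of a member held counts equal to 4.6% to 5.76% of those of the members.

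Ribosomal protein mRNA made up a smaller part of the transcriptome in myotubes than in myoblasts. In control myotubes the members held 2.339%, 2.35% and 2.478% of all counts, against 4.265%, 4.035% and 4.033% in control myoblasts. In TPM, the shares were 8.246%, 8.25% and 8.645% in control myotubes and 13.72%, 13.08% and 13.18% in control myoblasts. The groups did not overlap on either scale, and the log2 ratio of the mean shares was -0.78 for counts and -0.67 for TPM. In myotubes the shares of counts lay between 2.334% and 2.521% with siRNA 1 and between 2.39% and 2.585% with siRNA 2, each overlapping the controls. In myoblasts the 3 siRNA 1 libraries, at 4.017%, 4.015% and 3.941%, all lay slightly below the controls, and so they did in TPM (12.905%, 12.968% and 12.781%). The log2 ratio of the mean shares was -0.04 for siRNA 1 (SD between replicates 0.035), and it was -0.01 with protein-coding counts as the whole, where the groups overlapped. With siRNA 2 the myoblast shares were 4.044%, 3.861% and 3.763%, the first of them within the control range. In bulk RNA, fewer cells of a type and less RNA per cell cannot be told apart, and a share says nothing about the amount of RNA per cell.

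**Figure D1:**
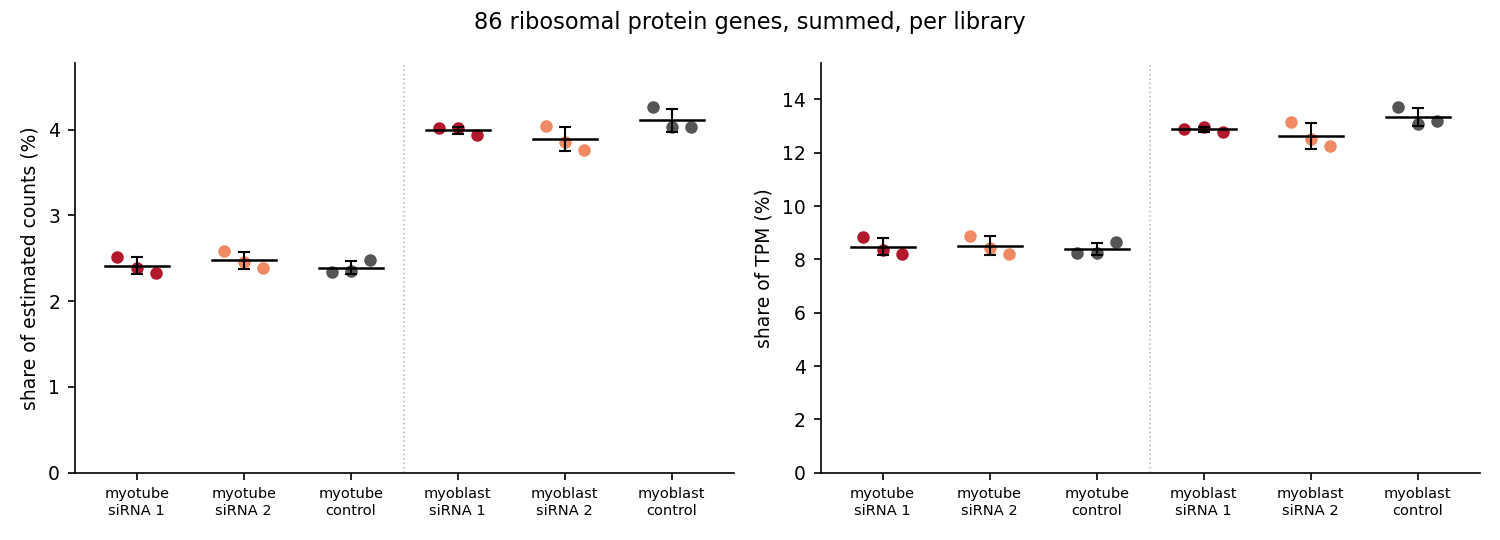
Share of all estimated counts (left, percent) and of all TPM (right, percent) held by the 86 ribosomal protein genes in each of the 18 libraries; points are libraries, horizontal bars are group means and error bars are SDs (n = 3). Every myotube library lies below every myoblast library on both scales, and within a stage the siRNA and control groups lie close together.

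The fall on differentiation ran through the whole family. With edgeR's quasi-likelihood test and Benjamini-Hochberg adjustment over 16930 genes, 83 of the 84 members tested fell and 1, Rpl3l, rose; over all genes 38.1% fell and 39.4% rose. The 46 large-subunit core genes and the 31 small-subunit core genes all fell. The median log2 fold change, control myotubes over control myoblasts, was -0.65 for the members and 0.00 for all genes, and it was -0.60 for the large-subunit and -0.75 for the small-subunit core genes. The 2 members not tested were Rpl10l, at 0 in every library, and Rpl39l, which had reads in 1 library. The ratio of summed large-subunit to small-subunit TPM was 1.40 ± 0.01 in control myotubes and 1.31 ± 0.00 in control myoblasts (SD, n = 3 each).

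The 4 largest falls were those of Rpl12, Rpsa, Rps2 and Rplp0. Rpl12, at the base of the stalk that recruits elongation factors, had 322.3, 335.4 and 347.7 CPM in control myotubes, against 775.9, 735.7 and 735.1 CPM in control myoblasts. Its log2 fold change was -1.16 (SE 0.039, adjusted p = 3.84e-16, edgeR). Rplp0, the core of that stalk, had 761.6, 757.1 and 787.9 CPM in control myotubes, against 1678, 1665 and 1670 CPM in control myoblasts (log2 fold change -1.12, SE 0.034). For these genes the lowest myoblast library had more than the highest myotube library.

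Rpsa encodes a small-subunit protein also described as a laminin receptor, and Rps2 one that lines the channel through which mRNA enters. Rpsa had 627.2, 629.6 and 656.1 CPM in control myotubes, against 1421, 1425 and 1407 CPM in control myoblasts (log2 fold change -1.15, SE 0.032). Rps2 had 389, 378.6 and 399.8 CPM in control myotubes, against 887.5, 855.1 and 821.8 CPM in control myoblasts (log2 fold change -1.14, SE 0.038). Rps12, in the head of the small subunit, was the member with the highest mean TPM over the 18 libraries (3620), followed by Rpl41 (3350) and the stalk protein gene Rplp1 (2776). It had 2384 ± 66.3 TPM in control myotubes and 4971 ± 115 TPM in control myoblasts (SD, n = 3 each), with a log2 fold change of -1.06.

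The falls that were smallest among the core genes were those of Rps27, a zinc-finger protein of the small subunit, and Rpl38, which in mouse is needed for the patterning of the axial skeleton. Rps27 had 160.5, 141.9 and 159.2 CPM in control myotubes, against 194.4, 168.5 and 171.2 CPM in control myoblasts. Its log2 fold change was -0.21 (SE 0.065, adjusted p = 0.00713, edgeR), and the call was lost without the second control myotube library; 98.7% of its 31-base words occur in other genes. Rpl38 had 90.12, 96.01 and 97.77 CPM in control myotubes, against 121, 104.8 and 105.8 CPM in control myoblasts (log2 fold change -0.22). Rpl22 (-0.29), Rpl24 (-0.32) and Rpl39 (-0.32) followed on the log2 scale, all on counts. For Rpl22 the count depends on which transcripts were present. Its main transcript Rpl22-201 (474 bases) averaged 674.4 TPM in control myotubes and 1169 TPM in control myoblasts. The longer Rpl22-208 (2048 bases), which yields more reads per molecule, averaged 69.94 TPM and 13.01 TPM. Rpl22-204, of nearly the same length (2051 bases), went the other way, with 3.821 TPM in control myotubes and 17.94 TPM in control myoblasts. In Rps27 and Rpl38 the myotube libraries still lay below every myoblast library, but by less than in the genes that fell most.

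**Figure D2:**
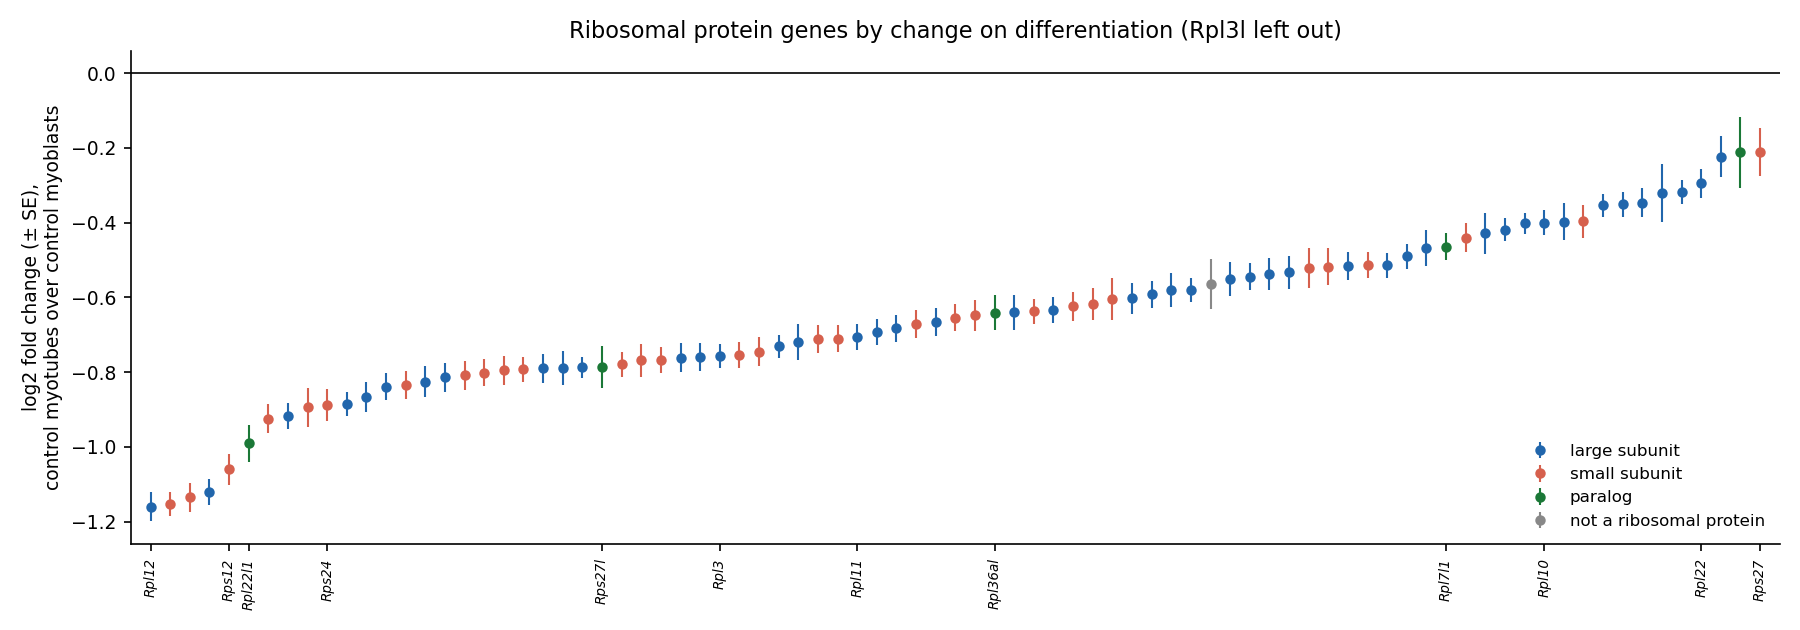
Log2 fold change (± SE, edgeR fit of all 18 libraries) of each ribosomal protein gene, control myotubes over control myoblasts, sorted and coloured by subunit, with some genes that the text describes named on the axis; Rpl3l, which had no read in control myoblasts, is left out. All 83 genes lie below 0, between -1.16 for Rpl12 and -0.21 for Rps27.

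The size of the fall was also set beside transcript length, level and start sequence. The 20 core genes with the longest transcripts (878 to 2045 bases) had a median log2 fold change of -0.74, and the 19 with the shortest (250 to 491 bases) one of -0.60. Across the 77 core genes Spearman's rho between transcript length and the signed log2 fold change was -0.23. Between control myoblast TPM and the signed log2 fold change it was -0.37. A negative rho here means that longer or more abundant transcripts tended to fall more. These are descriptions across genes measured in the same libraries. The 35 genes with a run of at least 6 pyrimidines at the start had a median of -0.75 and ranged from -1.16 to -0.21, and the 22 with a shorter run had a median of -0.59 and ranged from -1.15 to -0.30.

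Fau and Rack1, outside the symbol rule, moved the same way. Rack1, a signalling scaffold on the small subunit, had a log2 fold change of -0.63, and Fau, whose product is made as a fusion with a ubiquitin-like protein, had -0.52, both called lower. Genes for the machinery that makes ribosomes fell too. Of 36 genes of small-subunit processing 34 fell and 1 rose (median log2 fold change -0.81), and of 39 genes of large-subunit processing 35 fell and 1 rose (median -0.85). Among them were the box C/D protein gene Nop56 (-1.89), the pseudouridine synthase gene Dkc1 (-1.75), its partner Gar1 (-1.66), the nucleolar chaperone gene Npm1 (-1.99) and Rcl1 (-1.67), which in yeast acts in cleavage of pre-rRNA. Of 15 genes of RNA polymerase I and its factors 14 fell and none rose, led by Taf1d (-1.21) and Polr1c (-1.05). The 15 hosts of small nucleolar RNAs and other mRNAs with a pyrimidine tract had 13 lower and 2 higher, with a median of -1.20, among them Hnrnpa1 (-1.71) and Vim (-1.52).

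Translation factors followed the same direction with smaller changes. All 6 elongation factor genes fell (median -0.58), led by Eif5a (-1.34), and of 29 initiation factor genes 25 fell and 1 rose (median -0.37). Pabpc1, the poly(A)-binding protein, fell by 1.76, Eif4e, the cap-binding protein, by 1.08 and Eif4a1, the RNA helicase of the cap complex, by 1.03 on the log2 scale. Of 7 chaperones dedicated to single ribosomal proteins, 5 fell, led by Grwd1 (-1.56), and 1, Aamp, rose (0.59). The 25 genes of mTORC1, LARP and MYC had 12 higher, among them Mycl (2.45) and Deptor (2.00), and 10 lower, and the 16 genes of MDM2 and p53 targets 8 higher and 8 lower, led upward by Cdkn1a (3.09), the cell cycle inhibitor p21. Stage, deposited table and library prefix changed together, so the differentiation results cannot be told apart from the difference between tables, and no value within a prefix exists for them.

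Rpl3l was the one member that rose on differentiation, at a very low level. Over the group it had 57 estimated reads in control myotubes and 0 in control myoblasts, a level at least 20.4-fold higher when the myoblast group is set at its limit of 3 counts. The 3 control myotube libraries had 0.2562, 0.1527 and 0.6995 CPM, the highest being the one whose name holds NT_2. Rpl3, its ubiquitous counterpart, had 482.7, 485.5 and 496.7 CPM in control myotubes, against 838.5, 823.6 and 812.9 CPM in control myoblasts, and fell by 0.76 on the log2 scale (SE 0.033, adjusted p = 2.55e-14, edgeR). In TPM, Rpl3l made up 0.05415%, 0.03711% and 0.1661% of the sum of both genes in control myotubes, so nearly all transcripts of the pair came from Rpl3.

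With siRNA 2 the Rpl3l level in myotubes was higher than in controls. It was 2.1, 1.077 and 1.227 CPM with siRNA 2 and 0.7376, 0.2857 and 0.7126 CPM with siRNA 1, against 0.2562, 0.1527 and 0.6995 CPM in control myotubes. All siRNA 2 libraries lay above all controls, and the siRNA 1 libraries overlapped the controls. The log2 fold change was 2.00 for siRNA 2 (SE 0.541, adjusted p = 0.021) and 0.69 for siRNA 1 (adjusted p = 0.476), both edgeR. The siRNA 2 call was lost without control library 1, control library 2 or siRNA 2 library 1. The share of Rpl3l in the pair averaged 0.122% with siRNA 1 and 0.284% with siRNA 2, against 0.0858% in control myotubes, and the exact two-sided permutation test of the log2 ratio, 6 siRNA against 3 control libraries, gave p = 0.107 (adjusted over 5 pairs, 0.178). Myotube markers, summed, stood at 22370 to 23510 CPM with siRNA 2 and 18240 to 21390 CPM in controls, and their part in the Rpl3l result was not tested. In myoblasts the estimated reads of Rpl3l were 5 with siRNA 1, 1 with siRNA 2 and 0 in controls.

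The other paralogs tested fell on differentiation along with their core genes. Rpl22l1, the paralog of the RNA-binding protein gene Rpl22, had a log2 fold change of -0.99 (SE 0.05), and Rpl22 one of -0.29 (SE 0.038), both on counts. The log2 ratio of Rpl22l1 to Rpl22 differed between the control groups by -0.694 on counts and by -0.285 on TPM, which corrects for transcript length. The share of Rpl22l1 in the TPM of the pair was 19.03%, 17.64% and 19.17% in control myotubes and 22.37%, 21.73% and 21.26% in control myoblasts. Rps27l, a relative of Rps27 that responds to p53 in human cells, had a log2 fold change of -0.79 (SE 0.057), and its share in the pair was 12.1%, 12.84% and 12.98% in control myotubes and 17.64%, 17.83% and 17.48% in control myoblasts. The shares did not overlap between stages for either pair, and the exact permutation p was 0.1 for each, the smallest that 3 against 3 libraries can give. Rpl36al and Rpl36a (-0.64 and -0.72) and Rpl7l1 and Rpl7 (-0.46 and -0.58) changed by more similar amounts on the log2 scale.

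In siRNA myotubes the Rpl22l1 share of the TPM of the pair was lower than in controls in every library. It was 16.63%, 15.48% and 16.14% with siRNA 1 and 17.1%, 16.39% and 16.16% with siRNA 2, against 19.03%, 17.64% and 19.17% in control myotubes. The log2 ratio differed by -0.23, with an exact two-sided permutation p of 0.0119, the smallest that 6 against 3 libraries can give, and 0.0595 after adjustment over the 5 pairs. On counts the siRNA libraries (log2 ratio -2.677 to -2.451) overlapped the controls (-2.479 to -2.334). There the difference was -0.172, with an exact permutation p of 0.0357, and 0.0793 after adjustment. The gene itself was called lower with siRNA 1 (-0.20, SE 0.057, adjusted p = 0.0269, edgeR) and not with siRNA 2 (-0.13), and the siRNA 1 call was lost without control library 1 or 3 or siRNA 1 library 2 or 3. Within prefix C13 the log2 ratio of Rpl22l1 was -0.13 for siRNA 1 and -0.11 for siRNA 2, and within D1 it was -0.20 and -0.10.

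Transcript shares within ribosomal protein genes shifted by little between the stages for most members, and by most for Rps24. Of the 58 members with 2 or more transcripts in the tables, 51 shifted by less than 5 percentage points of their gene's TPM between control groups, and 1, Rps24, by 10 points. The other 6 shifted by amounts between these limits: Rpl27-201 (8.95 points higher in control myotubes), Rps19-210 (8.73), Rpl5-201 (8.72), Rpl22-208 (8.08) and Rpl35a-201 (7.36), and Rps28-202 (-6.05). Rpl22-208 made up 9.979%, 7.932% and 9.441% of the gene's TPM in control myotubes, against 1.675%, 1.4% and 0.03094% in control myoblasts, without overlap. In the third control myoblast library Rpl22-208 had 0.3827 TPM and Rpl22-204, of nearly the same length, had 30.33 TPM. How the quantifier divided reads between them was not tested. Rps24 encodes a small-subunit protein needed in human cells for processing of the small-subunit rRNA and was singled out after its values were seen. Its shorter transcript Rps24-201 (468 bases) made up 98.65%, 98.54% and 98.37% of the gene's TPM in control myotubes, against 89.04%, 88.12% and 88.39% in control myoblasts. The longer transcript Rps24-202 (837 bases) had 28.2 ± 2.84 TPM in control myotubes and 359 ± 10.1 TPM in control myoblasts (SD, n = 3 each). With an siRNA it averaged 16.8 TPM (siRNA 1) and 20 TPM (siRNA 2) in myotubes, and 315 TPM and 357 TPM in myoblasts. Rps24-201 itself had 1877 ± 14.1 TPM in control myotubes and 2769 ± 85 TPM in control myoblasts.

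**Figure D3:**
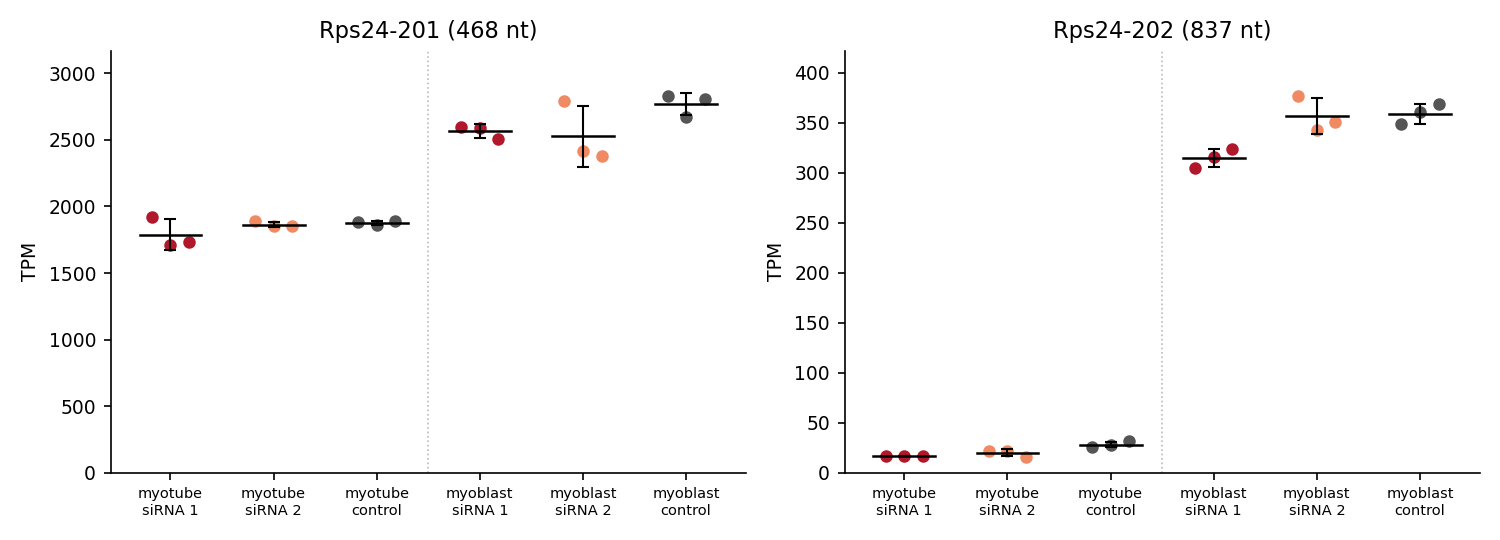
TPM of the transcripts Rps24-201 (468 bases) and Rps24-202 (837 bases) in each library; points are libraries, bars are group means and error bars are SDs (n = 3). Rps24-202 averaged 28.2 TPM in control myotubes and 359 TPM in control myoblasts, while Rps24-201 averaged 1877 TPM in control myotubes and 2769 TPM in control myoblasts.

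In myotubes more ribosomal protein genes rose than fell with each Setd2 siRNA, by small amounts. With siRNA 1, 9 of 84 members rose and 1 fell, where 11.0% of all 16097 genes rose and 9.57% fell; 7 of those that rose belong to the large and 2 to the small subunit. With siRNA 2, 33 rose and none fell, where 15.8% of all genes rose and 16.4% fell; 21 were large-subunit genes, 10 small-subunit genes and 2 paralogs (Rpl3l and Rps27l). For the count of 0, 1 member was lower at an unadjusted p under 0.05, where 21.8% of all genes were, and DESeq2 called none lower. The median log2 fold change of the members was 0.06 for siRNA 1 and 0.10 for siRNA 2, and that of all genes was 0.00 and -0.01. The share of members that rose with siRNA 1 is near that of all genes, and the share that fell is below it. Both siRNAs were set against the same 3 control libraries.

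These counts varied with the scaling and with single libraries. On TPM with limma the split was 3 higher and 3 lower for siRNA 1 and 6 higher and 5 lower for siRNA 2, where the median of all genes was itself -0.06 and -0.10 and that of the members 0.02 for each. Without control library 1 the counts of members that rose were 3 (siRNA 1) and 20 (siRNA 2), without control library 2 they were 3 and 19, without siRNA 1 library 2 the first was 5, and without control library 3, the one named NT_2, they were 8 and 31. The number that fell was 0 for siRNA 1 without control library 1 or 3 or siRNA 1 library 2 or 3 and 2 without siRNA 1 library 1, and 1 for siRNA 2 without control library 1 or siRNA 2 library 1. Within prefix C13 the 77 core genes had a median log2 ratio of 0.10 for siRNA 1 and 0.14 for siRNA 2, with 75 and 76 of them above 0; within D1 the medians were 0.04 and 0.10, with 54 and 68 above 0. With the prefix as a term in the model, 30 rose and 1 fell with siRNA 1, and 56 rose and none fell with siRNA 2. The share of all genes called in that fit is not given here, so these counts cannot be set against it. The share of rRNA gene counts was 1.498% to 2.876% with siRNA 1, 2.261% to 2.987% with siRNA 2 and 1.268% to 2.292% in control myotubes, and markers of dividing cells summed to 231.1 to 247.4, 252.3 to 267.1 and 331.9 to 356 CPM in the same groups. Fibroblast markers summed to 133.6 to 142.7 CPM with siRNA 1, above the controls, and to 87.5 to 103.7 CPM with siRNA 2, against at most 105.2 CPM in control myotubes. Their part in the result was not tested.

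**Figure D4:**
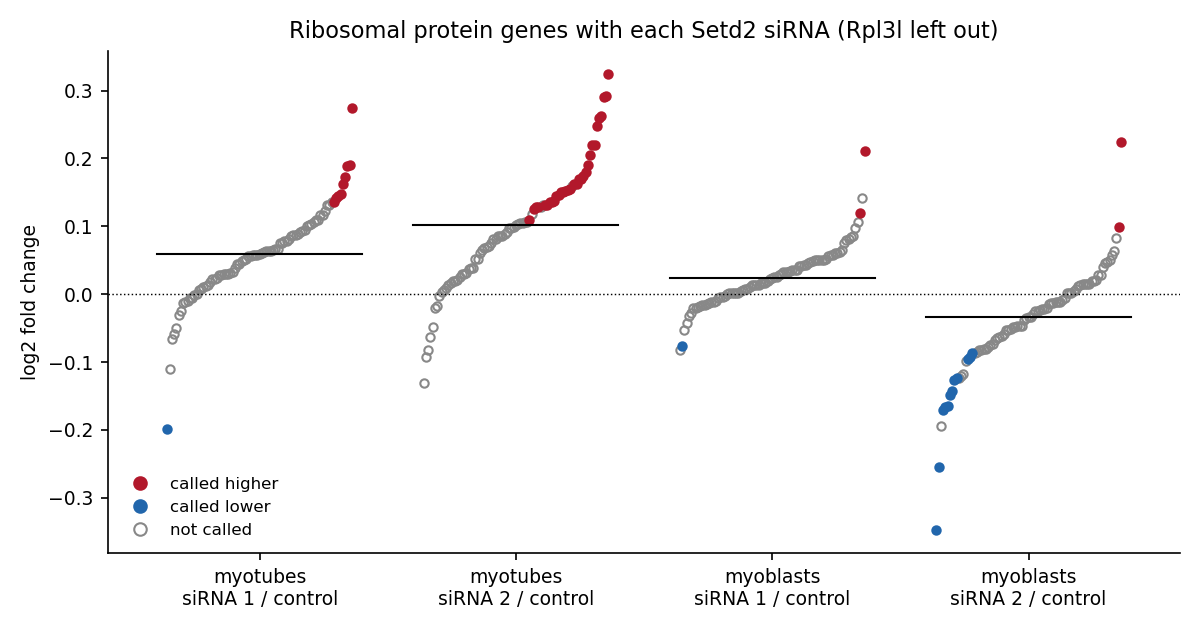
Log2 fold change of each ribosomal protein gene for siRNA 1 and siRNA 2 over control in myotubes and in myoblasts (edgeR); filled points passed an adjusted p under 0.05, open points did not, horizontal lines are the medians, and Rpl3l is left out. The myotube medians lie above 0 (0.06 and 0.10), and in myoblasts Rpl10 stands above and Rpl11, with siRNA 2, below the other genes.

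Rpl14, a protein of the large subunit (ENSMUSG00000025794, chromosome 9, 120571444 to 120574654, plus strand, GRCm38), rose with each siRNA in myotubes. It had 369.4, 374.7 and 366.3 CPM with siRNA 1 and 377.7, 381.9 and 369.9 CPM with siRNA 2, against 305, 311.2 and 305.3 CPM in control myotubes. No siRNA library overlapped the controls. The log2 fold change was 0.27 for siRNA 1 (SE 0.032, adjusted p = 0.000144) and 0.29 for siRNA 2 (SE 0.032, adjusted p = 3.71e-05), both edgeR. Within prefix C13 the log2 ratios were 0.28 and 0.31, and within D1 0.25 and 0.27. In myoblasts Rpl14 had 401.9, 398.6 and 415.4 CPM with siRNA 1 and 391.4, 390.6 and 381.7 CPM with siRNA 2, against 413.6, 407.4 and 397 CPM in controls, and was called with neither.

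Rps21, a small-subunit protein, had 156.6, 158.6 and 147.7 CPM with siRNA 1 and 177, 169.4 and 164 CPM with siRNA 2, against 138.5, 130.8 and 137.8 CPM in control myotubes. Its log2 fold change was 0.19 for siRNA 1 (SE 0.044, adjusted p = 0.0102) and 0.32 for siRNA 2 (SE 0.044, adjusted p = 0.000188), both edgeR, and all siRNA libraries lay above the controls. Smaller rises, each called with its siRNA, were those of Rps20 (0.16 with siRNA 1 and 0.22 with siRNA 2), Rpl37a (0.15 and 0.20), Rpl36 (0.14 and 0.22), Rpl24 (0.14 and 0.16) and Rpl28 (0.14 and 0.18). For these 5 genes the siRNA 1 call was lost without control library 1 and without control library 2; for Rpl37a and Rpl28 it was also lost without siRNA 1 library 1 or 2, for Rpl36 without siRNA 1 library 2, and for Rpl28 without control library 3. On TPM the calls of Rps20, Rpl37a, Rpl24 and Rpl28 were lost for both siRNAs, and that of Rpl36 for siRNA 1.

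Rps27a, Rps27l and Rps16 were called with siRNA 2. Rps27a, which is made as a fusion with ubiquitin, had a log2 fold change of 0.26, Rps27l one of 0.26 and Rps16 one of 0.25 with siRNA 2. Rps27l had 52.78, 51.12 and 48.6 CPM with siRNA 2, against 42.22, 39.86 and 45.33 CPM in control myotubes. Rps16 had 236, 226 and 218.4 CPM with siRNA 1 and 254.4, 254 and 229.9 CPM with siRNA 2, against 204.7, 201.2 and 215.4 CPM in control myotubes. For Rps27l and Rps16 every siRNA 2 library lay above every control; on TPM the Rps27l call was lost. Fau, outside the symbol rule, rose with siRNA 1 (0.21) and with siRNA 2 (0.37), while Rack1 was not called with either.

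Set against each other in myotubes, siRNA 2 gave 5 members higher and 2 lower than siRNA 1, where 7.76% of all genes were higher and 9.36% lower. The largest differences upward were those of Rps14 and Rps27a (0.16 each) and of Rpl29 and Rpl12 (0.14 each), and those downward of Rps29 (-0.19) and Rpl36al (-0.17), on the log2 scale. With protein-coding transcripts alone Rpl12 was at 0.08 and no longer called (adjusted p = 0.313, edgeR). The number of members higher was 15 without siRNA 1 library 1, 3 without siRNA 2 library 1, 1 without siRNA 2 library 2 and 0 without siRNA 1 library 2 or 3, and the number lower was 1 without siRNA 1 library 1 and 0 without siRNA 1 library 2 or siRNA 2 library 2 or 3. On TPM none was higher and 2 were lower, and with the prefix as a term 19 were higher and 3 lower (11.9% and 13.1% of all genes).

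Genes that make and drive ribosomes were called in both directions in myotubes, in shares that for several lists were near those of all genes (11.0% higher and 9.57% lower with siRNA 1, 15.8% and 16.4% with siRNA 2). With siRNA 1, 5 genes of small-subunit processing rose and 3 fell, and with siRNA 2, 5 rose and 4 fell, of 36 tested. Of 39 genes of large-subunit processing 2 rose and 7 fell with siRNA 1, and 3 rose and 9 fell with siRNA 2, among them Dkc1 (-0.35 with siRNA 1 and -0.23 with siRNA 2). Initiation factor genes had 6 higher and 1 lower of 29 with siRNA 1, and 10 higher and 2 lower with siRNA 2. Of the 25 genes of mTORC1, LARP and MYC 6 rose and 2 fell with siRNA 1, and 4 rose and 4 fell with siRNA 2; Myc was at -0.54 with siRNA 1 and -0.32 with siRNA 2, and Deptor, an inhibitor of mTOR, at -0.28 and -1.88, all called lower. Ltv1, an assembly factor of the small subunit, had 31.93, 31.22 and 30.65 CPM with siRNA 2, against 38.33, 36.85 and 37.07 CPM in control myotubes, without overlap (log2 fold change -0.26).

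In myoblasts few ribosomal protein genes changed with siRNA 1. Of 83 members tested, 2 rose, Rpl10 among them, and 1 fell (Rplp0), where 11.6% of all 15586 genes rose and 8.44% fell; these shares are below those of all genes. The median log2 fold change was 0.02 for the members and 0.01 for all genes, and on TPM it was -0.05 and -0.06. Rplp0 had a log2 fold change of -0.08 (adjusted p = 0.0378, edgeR). Without control library 1, 10 members rose, without control library 2 or 3 or siRNA 1 library 3, 1 did; the Rplp0 call, and with it any member lower, was lost without control library 2 or 3 or siRNA 1 library 1 or 2, while 2 members fell without siRNA 1 library 3. On TPM 1 member rose and 4 fell, with the prefix as a term 9 rose and 2 fell (18.0% and 14.3% of all genes), and within prefix the median log2 ratio of the 77 core genes was -0.04 in C14 and 0.04 in D2. The rRNA gene share was 3.9%, 3.556% and 3.886% with siRNA 1, against 1.195% to 1.359% in control myoblasts, without overlap, and its part in the result was not tested.

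With siRNA 2 more members fell than rose in myoblasts. Of 83 tested, 2 rose (Rpl10 and Rpl5) and 12 fell, where 17.1% of all genes rose and 16.5% fell, and the median log2 fold change was -0.03 for the members and 0.00 for all genes. The share that fell is near that of all genes. With the prefix as a term 6 members rose and 31 fell, where 23.7% of all genes rose and 22.6% fell. Among the 12 were Rpl11, Rps19bp1, Rpl36al, the stalk gene Rplp1, and Rps29, Rpl13a, Rpl27, Rpl7l1, Rps3, Rpl8 and Rpl18. Without siRNA 2 library 3, whose column names SETD3, 7 members fell; 7 fell without siRNA 2 library 2 and 26 without siRNA 2 library 1. The number that rose was 4 without control library 1 and 1 without control library 2 or 3 or siRNA 2 library 2. On TPM 1 rose and 25 fell, and within prefix the median log2 ratio was -0.03 in C14 and -0.04 in D2. The rRNA gene share was 1.453%, 1.897% and 4.087% with siRNA 2 and 1.195% to 1.359% in control myoblasts. Myotube markers summed to 346.7 to 426.4 CPM with siRNA 2, against 167.9 to 207.9 CPM in control myoblasts, without overlap. The part of either in the result was not tested.

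Rpl10 rose with each siRNA in myoblasts. Rpl10 is a late-joining protein of the large subunit beside the peptidyl transferase centre (ENSMUSG00000008682, chromosome X, 74270812 to 74273135, plus strand, GRCm38). It had 741.5, 729.3 and 737.6 CPM with siRNA 1 and 752, 745.8 and 730.8 CPM with siRNA 2, against 658.1, 630.9 and 624.2 CPM in control myoblasts. The 6 siRNA libraries lay above the 3 controls. The log2 fold change was 0.21 for siRNA 1 (SE 0.027, adjusted p = 0.000192) and 0.22 for siRNA 2 (SE 0.027, adjusted p = 4.91e-05), both edgeR. Within prefix C14 the log2 ratios were 0.16 and 0.19, and within D2 0.23 and 0.23. In its transcript 92.3% of the 31-base words occur in other genes, so reads of its copies can be among these counts. In myotubes Rpl10 had 514.7, 501.8 and 489.8 CPM with siRNA 1 and 501.7, 510.5 and 479.3 CPM with siRNA 2, against 478.7, 469.5 and 502.2 CPM in controls, with overlap and no call.

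Rpl11 fell with siRNA 2 and not with siRNA 1 by the test. Rpl11 and Rpl5 enter the large subunit together with the 5S rRNA and, when free, bind the p53 regulator MDM2. Rpl11 (ENSMUSG00000059291, chromosome 4, 136028265 to 136053428, minus strand, GRCm38) had 415.2, 405 and 394.5 CPM with siRNA 2 and 526.1, 536.4 and 535.6 CPM with siRNA 1, against 530.2, 509.9 and 510.3 CPM in control myoblasts. Every siRNA 2 library lay below every other myoblast library. The log2 fold change was -0.35 for siRNA 2 (SE 0.028, adjusted p = 1.75e-06) and 0.05 for siRNA 1 (not called), and siRNA 2 over siRNA 1 gave -0.40 (SE 0.028, adjusted p = 1.02e-06), all edgeR. Within prefix C14 the siRNA 2 log2 ratio was -0.35 and within D2 it was -0.35. Rpl5 had 799.8, 752.1 and 735.3 CPM with siRNA 2, against 723.5, 712.9 and 705 CPM in control myoblasts (log2 fold change 0.10, SE 0.033, adjusted p = 0.0349, edgeR), a call that was lost without siRNA 2 library 1 or 2 or control library 2 or 3, and on TPM.

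**Figure D5:**
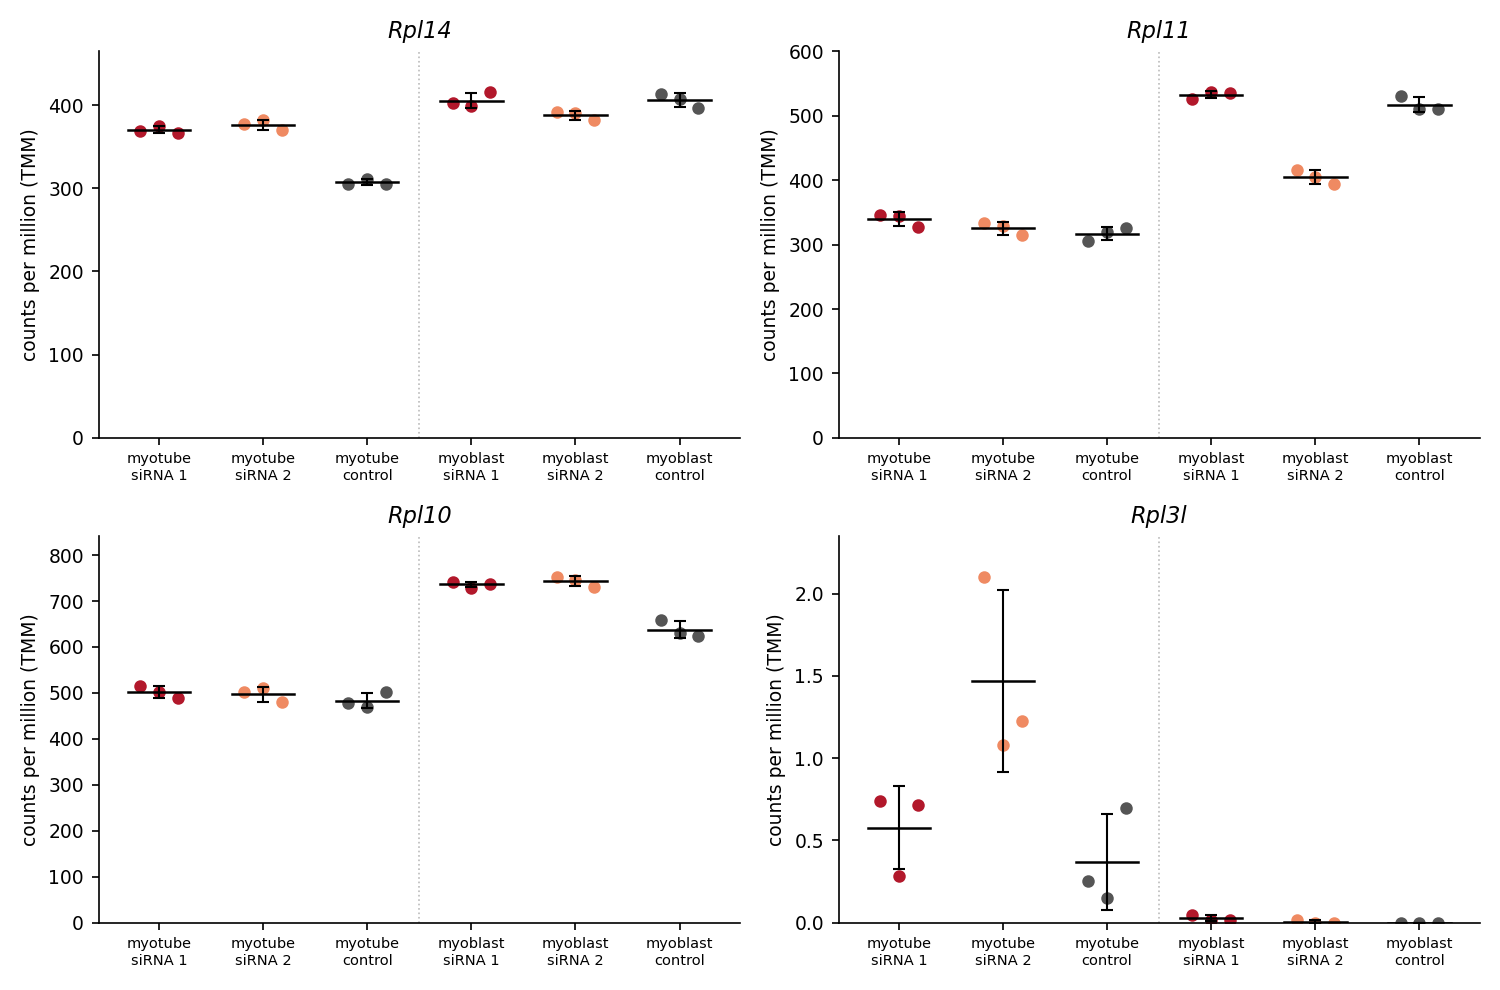
TMM-scaled CPM of Rpl14, Rpl11, Rpl10 and Rpl3l in each of the 18 libraries; points are libraries, bars are group means and error bars are SDs (n = 3). Rpl14 is higher in the siRNA myotubes (366.3 to 381.9 CPM) than in control myotubes (305 to 311.2 CPM), Rpl11 is lower in siRNA 2 myoblasts (394.5 to 415.2 CPM) than in control myoblasts (509.9 to 530.2 CPM), and Rpl10 is higher in siRNA myoblasts (729.3 to 752 CPM) than in control myoblasts (624.2 to 658.1 CPM).

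Other members that fell with siRNA 2 in myoblasts changed by less. Rplp1, which pairs with Rplp2 in the stalk, had 550.1, 558.6 and 550 CPM with siRNA 2, against 644.3, 618.8 and 603.8 CPM in control myoblasts, without overlap (log2 fold change -0.17, SE 0.029). Rps19bp1, which is no ribosomal protein, had 22.02, 25.76 and 26.16 CPM with siRNA 2, against 29.16, 28.83 and 30.35 CPM in control myoblasts (log2 fold change -0.25, SE 0.064). Rpl36al had 111, 99.78 and 101.1 CPM with siRNA 2, against 123.2, 114.1 and 114.9 CPM in control myoblasts (log2 fold change -0.17, SE 0.045), and its call was lost without siRNA 2 library 2 or 3. The Rpl36al share of the TPM of Rpl36al and Rpl36a was 30.28%, 30.54% and 30.42% with siRNA 2 and 33.94%, 33.04% and 33.05% in control myoblasts. With siRNA 1 it was 33.61%, 33.24% and 33.85%, within the control range. Over both siRNAs the log2 ratio differed by -0.09 (exact two-sided permutation p = 0.345, adjusted over the pairs tested 0.512).

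Compared directly in myoblasts, siRNA 2 gave 1 member higher and 17 lower than siRNA 1, where 12.1% of all genes were higher and 14.3% lower, and the median log2 fold change of the members was -0.05. The member that was higher was Rplp0 (0.08), and after Rpl11 the largest falls were those of Rps19bp1 (-0.36), Rpl36al (-0.22) and Rpl13a (-0.20), known in human cells as part of a complex that silences mRNAs. The number lower was 11 without siRNA 1 library 1, 30 without siRNA 2 library 1, 9 without siRNA 2 library 2 and 8 without siRNA 2 library 3, and none was higher without siRNA 1 library 1 or 2 or siRNA 2 library 2 or 3. On TPM 1 was higher and 7 were lower, and with the prefix as a term 3 and 30 (19.7% and 20.5% of all genes). Myotube markers summed to 346.7 to 426.4 CPM with siRNA 2 and 196.9 to 268.4 CPM with siRNA 1.

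Genes of ribosome assembly fell with siRNA 2 in myoblasts. Of 39 genes of large-subunit processing 30 fell and none rose (median log2 fold change -0.25), and of 36 genes of small-subunit processing 27 fell and 1 rose (median -0.21), where 16.5% of all genes fell and 17.1% rose. With single libraries left out the numbers that fell were 28 to 31 for the large subunit and 18 to 28 for the small, the lowest being 18 without control library 3; without the library whose column names SETD3 they were 30 and 24. The summed myotube markers stood at 346.7 to 426.4 CPM in these siRNA 2 libraries and 167.9 to 207.9 CPM in control myoblasts. They were thus higher where these lists were lower, and their part was not tested. Noc2l, whose yeast relative acts in large-subunit assembly, had 68.31, 80.46 and 78.87 CPM with siRNA 2 and 117.1, 114.2 and 134 CPM with siRNA 1, against 117.8, 127.9 and 125.6 CPM in control myoblasts (log2 fold change for siRNA 2 -0.70, SE 0.073). Ddx21, a nucleolar RNA helicase, had 324.9, 356.6 and 355 CPM with siRNA 2, against 470.6, 499.8 and 524.8 CPM in control myoblasts (-0.52). Ltv1 had 40.84, 41.11 and 41.86 CPM with siRNA 2, against 54.68, 59.23 and 59.25 CPM in control myoblasts (-0.48). In each of these the siRNA 2 libraries lay below the controls without overlap.

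With siRNA 1 the same lists had 7 lower and 1 higher of 39, and 6 lower and 2 higher of 36. Compared directly, siRNA 2 was lower than siRNA 1 in 22 of the 39 and in 17 of the 36, and higher in none. Nop58, a core protein of the box C/D particles that guide rRNA methylation, went the other way: it had 223, 222.7 and 238.5 CPM with siRNA 1 and 202, 211 and 209.9 CPM with siRNA 2, against 144.3, 164.9 and 163.5 CPM in control myoblasts (log2 fold changes 0.54 and 0.40, both called). Initiation factor genes had 4 higher and 9 lower of 29 with siRNA 2, led by Eif4h, a cofactor of the helicase eIF4A, with 226, 254.6 and 242 CPM with siRNA 2, against 455, 439 and 443.7 CPM in control myoblasts (-0.89).

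The upstream regulators and the p53 list changed in mixed directions in myoblasts. Of 24 genes of mTORC1, LARP and MYC tested, 11 rose and 3 fell with siRNA 1, and 7 rose and 7 fell with siRNA 2. Larp1 had 434.3, 427.7 and 469.7 CPM with siRNA 1 and 352.2, 390.7 and 376.6 CPM with siRNA 2, against 305.6, 291.4 and 304.5 CPM in control myoblasts, without overlap (log2 fold changes 0.57 and 0.32). Of 16 genes of MDM2 and p53 targets 1 rose and none fell with siRNA 1, and 5 rose and 4 fell with siRNA 2, among them Trp53inp1 (0.62) and Cdkn1a (0.37); markers of dividing cells summed to 2091 to 2177 CPM with siRNA 1, 2290 to 2486 CPM with siRNA 2 and 2123 to 2141 CPM in control myoblasts.

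The siRNA effect on ribosomal protein genes differed between the stages for a share of the members. The difference was tested as the mean effect of both siRNAs in myotubes minus that in myoblasts, in 1 edgeR fit of 18 libraries. The effect was higher in myotubes for 25 of 84 members (16 large-subunit and 9 small-subunit genes) and lower for 1, where 10.6% of all 16930 genes were higher and 12.8% lower. The median difference was 0.09 for the members and 0.00 for all genes on the log2 scale. It was led by Rpl14 (0.32, SE 0.035, adjusted p = 2.44e-06), Rps21 (0.24, SE 0.046, adjusted p = 0.000689), Rpl11 (0.22, SE 0.042, adjusted p = 0.000676) and Rps16 (0.19, SE 0.054, adjusted p = 0.0129). For Rpl11 the siRNAs differed in myoblasts, at -0.35 with siRNA 2 and 0.05 with siRNA 1 (not called). In myotubes Rpl11 was called with neither. The 1 member lower was Rpl10 (-0.17, SE 0.042, adjusted p = 0.00671). The Rps16 call was lost without the first myoblast control library or the second myotube control library, and on TPM.

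The number of members with a higher effect in myotubes depended on single libraries. It was 8 without the first myoblast control, 13 without the third siRNA 2 myoblast library, 8 without the first and 7 without the second myotube control, 13 and 12 without the first and second siRNA 1 myotube libraries, and 13 each without the first and second siRNA 2 myotube libraries; without the third myotube control it was 25. The number lower was 2 without the first myoblast control, the third siRNA 1 myoblast or the first siRNA 1 myotube library. With the prefix as a term, 48 were higher and 2 lower, and on TPM 11 were higher and 1 lower. The shares of all genes called in those fits are not given here, so these counts cannot be set against them. Fau (0.21) was also called higher.

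The share of a gene's counts at transcripts not annotated as protein-coding, such as those with a retained intron, was tested with limma for the mean of both siRNAs against control. No member was called in either stage, of 52 tested in myoblasts and 51 in myotubes, where 0.0743% and 0.0% of all genes were called. At an unadjusted p under 0.05, 1 member was higher and none lower in myoblasts (3.06% and 4.96% of all genes), and none was higher and 7 were lower in myotubes (3.26% and 5.93% of all genes). The median log2 difference of the members was 0.01 in myoblasts and -0.06 in myotubes, and that of all genes -0.02 and -0.05.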

How the data were processed

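PolyA RNA of 18 C2C12 libraries was analysed from 2 deposited tables, 1 per stage. Per the file headers they hold length, effective length, TPM and read number per Ensembl transcript, the columns of a salmon-type quantifier; the sources used here name neither the quantifier and its annotation nor the strand setting, and reads of genes that overlap, or lie antisense to each other, may be mixed. The submitters' processing notes name mm10 and DESeq2 without a role. The authors' estimated counts carry no scaling for depth, and their deposited TPM values are scaled within each library. The totals of 43544308 to 66615342 reads make the levels of most members precise, while Rpl3l rests on few reads. The columns were matched to samples by name.

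Of 115088 transcripts, 114200 were matched by identifier to GENCODE M21 (GRCm38) and summed to 47311 genes; the 888 unmatched held 0.16% to 0.24% of counts. The gene sums of the estimated counts were rounded to whole numbers, filtered with filterByExpr (minimum count 10), scaled by TMM and tested with edgeR 4.0.16 (R 4.3.3): quasi-likelihood F test, Benjamini-Hochberg adjustment over all genes tested, called at an adjusted p under 0.05. Each stage was fitted with its 3 groups; differentiation and the stage difference used 1 fit of 6 groups. The comparison of siRNA 2 with siRNA 1 was added after the data were seen. Shares of transcripts that are not protein-coding were tested with limma 3.58.1 (offset 0.5, mean of at least 20 counts in each part), and paralog ratios with exact two-sided permutation tests where both genes averaged at least 1 TPM. Alternatives were DESeq2 1.42.0, RLE scaling, TMM without the members, no filter, limma on log2(TPM + 0.1) and log2(TPM + 1), the replicate number or library prefix as a term, protein-coding transcripts only, pseudogene counts added, and each library left out. The edgeR and limma steps were tested on simulated data.

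Members, gene lists, markers and tests were chosen with earlier results of these data known. Named in the text are paralog pairs, the 4 largest calls each way per comparison, members called the same way with each siRNA (up to 8), the 3 highest and lowest by mean TPM, Rpl5 and Rpl11, and up to 3 called genes per list; Rps24 was added after its values were seen. A few genes that this rule takes are not reported here.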

Additional observations from a re-analysis of the deposited data

Results flagged for a closer look

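The effect of the siRNAs, as the mean of both against control, differed between the stages by the edgeR test of the difference itself (myotubes minus myoblasts, log2 scale). It was higher in myotubes for 25 members and lower for 1. The named differences were 0.32 for Rpl14, 0.24 for Rps21, 0.22 for Rpl11, 0.19 for Rps16 and -0.17 for Rpl10. For Rpl14, Rps21 and Rps16 the 6 siRNA myotube libraries lay above the 3 control myotube libraries. For Rpl11 the siRNA 2 myoblasts lay below the control myoblasts, and the siRNA 1 myoblasts overlapped them. For Rpl10 the 6 siRNA myoblast libraries lay above the controls. The Rps16 difference was not called on TPM. The count of 25 was between 7 and 28 with single libraries left out. Groups of 3 libraries were not tested for single libraries that stand apart.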

How the results depend on the processing

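The fall on differentiation held for 81 to 83 of the 84 members under every alternative run and with each library left out. The log2 ratio of the summed share on differentiation was -0.669 on TPM, and that of siRNA 1 in myoblasts was -0.006 against protein-coding counts alone. Counts of members called moved most, the cause not being tested. The share of all genes called under each setting is not given in the list that follows. For siRNA 1 in myoblasts, higher (2 in the analysis as reported): 1 on either TPM scale, 8 with the replicate block, 9 with the prefix, 1 to 10 with a library left out; lower (1): 0 with no filter, 4 on either TPM scale, 2 with the prefix, 0 to 2 with a library left out. For siRNA 2 in myoblasts, higher (2): 1 with no filter and on either TPM scale, 6 with the prefix, 1 to 4 with a library left out; lower (12): 25 on log2(TPM + 0.1) and 24 on log2(TPM + 1), 23 with the replicate block, 31 with the prefix, 7 to 26 with a library left out. For siRNA 2 over siRNA 1 in myoblasts, higher (1): 0 with no filter, 3 with the prefix, 0 to 1 with a library left out; lower (17): 7 on either TPM scale, 29 with the replicate block, 30 with the prefix, 8 to 30 with a library left out. For siRNA 1 in myotubes, higher (9): 3 on either TPM scale, 30 with the prefix, 3 to 13 with a library left out; lower (1): 3 on either TPM scale, 0 to 2 with a library left out. For siRNA 2 in myotubes, higher (33): 6 on either TPM scale, 56 with the prefix, 19 to 41 with a library left out; lower (0): 5 on either TPM scale, 0 to 1 with a library left out. For siRNA 2 over siRNA 1 in myotubes, higher (5): 13 with DESeq2, 0 on either TPM scale, 10 with the replicate block, 19 with the prefix, 0 to 15 with a library left out; lower (2): 0 to 3 with a library left out. For the stage difference, higher (25): 11 and 12 on the TPM scales, 48 with the prefix, 7 to 28 with a library left out; lower (1): 2 with the replicate block or the prefix, 1 to 2 with a library left out.

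Among values that were not called, the sign turned on log2(TPM + 0.1) for Rpl5 (-0.052) and Rpl11 (-0.033) with siRNA 1 in myoblasts and for Rpl10 (-0.048), Rpl5 (-0.025) and Rpl11 (-0.057) with siRNA 2 in myotubes, and for Rpl5 with siRNA 1 in myotubes (0.014 and 0.006, in a range from -0.035 to 0.014) without siRNA 1 library 2 or 3. On TPM the log2 ratio of Rpl22l1 to Rpl22 in myotubes ranged from -0.277 to -0.203 with a library left out, and that of Rpl7l1 to Rpl7 from -0.075 to -0.053. Each passed the adjusted threshold without siRNA 2 library 3 (-0.227 and -0.070, adjusted exact permutation p = 0.0447). On counts the ratios were -0.172 and -0.062 (adjusted exact permutation p = 0.0793 and 0.0595). The replicate numbers do not pair the libraries: deviations of same-numbered libraries correlated between -0.489 and 0.682 in myoblasts and between -0.36 and 0.459 in myotubes. The replicate block changed no call of a named member.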
